A study of Mus musculus with 6 samples.

Results

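The genes described here fold, quality-check and export proteins in the endoplasmic reticulum (ER) of mouse bone marrow, or respond when that work falls behind. They are 32 genes chosen by symbol, of 19938 genes that the array annotation names through a probe set with exactly 1 symbol, and for each gene the probe set with the highest mean over the 6 arrays was used. The list holds 17 chaperones and folding enzymes, 4 genes of ER-associated degradation, 2 subunits of the translocon, 3 stress sensors and 6 genes of the branch run by the transcription factors ATF4 and CHOP. Marrow flushed from the femurs and tibiae of 3 wild type and 3 diabetic mice was compared on single-colour Affymetrix gene arrays. Both groups are labelled as males of 10 weeks on the BKS background, with +/+ for wild type and -/- for diabetic beside the Leprdb allele. As background, loss of the long leptin receptor from birth gives this model obesity as well as high blood glucose. The labels name no treatment and no sorting of cells, and they do not say whether an array held 1 animal or a pool, so a p-value here sets a difference against the scatter of these arrays alone, which may be technical.

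Secreted and membrane proteins enter the ER through a channel, are bound by chaperones and receive disulfide bonds there. When unfolded protein builds up, 3 sensors in the ER membrane respond. ATF6 and IRE1, the latter through the transcription factor XBP1, raise chaperones and degradation factors, while PERK slows translation and favours ATF4, which raises amino acid genes and CHOP. Plasma cells, which secrete antibody, and developing granulocytes rely on this machinery in marrow.

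Signals are on the log2 scale and were summarised by the robust multi-array average (RMA), so 1 unit is a doubling of signal, and each change is diabetic minus wild type. Median signals over all probe sets lay between 7.67 and 7.73 on the 6 arrays, and the number of arrays limits the precision. Markers of the marrow's main cells were present, since all 9 late neutrophil, 6 promyelocyte and 7 erythroid genes measured lay above the level cut described next. The label male went against the signals of 5 of the 6 arrays. Xist, the RNA that coats the inactive X chromosome in females, was at 7.04 on the array labelled wild type replicate 1 and between 12.6 and 12.8 on the other 5. The Y-linked gene Eif2s3y was at 9.34 on that array and between 4.02 and 4.37 on the others, and Kdm5d was at 8.44 against 5.98 to 6.27. Counts for the groups of genes are therefore also given with that array left out.

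Genes were tested when their mean log2 signal reached 7.503, the 40th percentile of probe sets with a symbol. This left 12029 genes and all 32 members. In limma with Benjamini-Hochberg adjustment, 52 genes passed an adjusted p of 0.05, which is 0.432% of those tested, and the count fell to 13, 5, 3 and 12 without wild type replicate 2 or diabetic replicate 1, 2 or 3. Of the 52, 40 were lower (0.333%) and 12 higher (0.0998%) in diabetic marrow. None of the 32 members was among them, nor among the 58 genes (0.482%) called without wild type replicate 1.

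Promoter sequences are shown first, because the members have a known control element that can be read directly. The ER stress element, called ERSE, is made of CCAAT, 9 free bases and CCACG, and the factor NF-Y binds its CCAAT box while ATF6 or XBP1 binds the CCACG end. It was searched on both strands in windows from 250 bases before to 50 bases after each annotated start, from a RefSeq table of build GRCm38.p6. Windows were found for 28 of the 32 members, and Hyou1, Manf, Atf6 and Sec61a1 had none in the table. Exact matches stood in 9 of the 28 members, against 37 of all 27025 genes with a window, or 0.137%. All 10 matches are printed 5′ to 3′ in the direction of the element, with the fixed letters in capitals and the 9 free bases in lower case.
Calr: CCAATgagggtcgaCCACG
Canx: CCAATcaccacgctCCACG
Creld2: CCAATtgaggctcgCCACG
Dnajc3: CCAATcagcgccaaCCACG
Ero1lb: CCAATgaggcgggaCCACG
Hsp90b1, farther match: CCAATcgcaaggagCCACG
Hsp90b1, nearer match: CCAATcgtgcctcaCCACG
Hspa5: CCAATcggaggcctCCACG
Pdia6: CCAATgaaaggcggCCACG
Syvn1: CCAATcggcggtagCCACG

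Of these 9 genes, 8 were chaperones or folding enzymes and the other was Syvn1, a ubiquitin ligase of ER-associated degradation. None of the 6 ATF4 and CHOP branch genes held an exact match in its window, which says only that these letters are not there. A related element, ERSE-II, made of ATTGG, 1 free base and CCACG, was found in Dnajb11 and Herpud1 and in 12 of all 27025 genes, or 0.0444%. The core of the unfolded protein response element, TGACGTG, was found in Hspa5 only among the members, and in 2.22% of all genes. TGATGNAAT, a form of the element that C/EBP and ATF proteins share, was found in no member window and in 1.08% of genes. Its shorter form TGATGNAA, tried after that, was found in Asns, Chac1, Trib3 and Herpud1 and in 4.51% of genes. The ERSE holds both the CCAAT box and CCACG, which alone are common: 41.1% and 35.5% of genes had them.

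**Figure D1:**
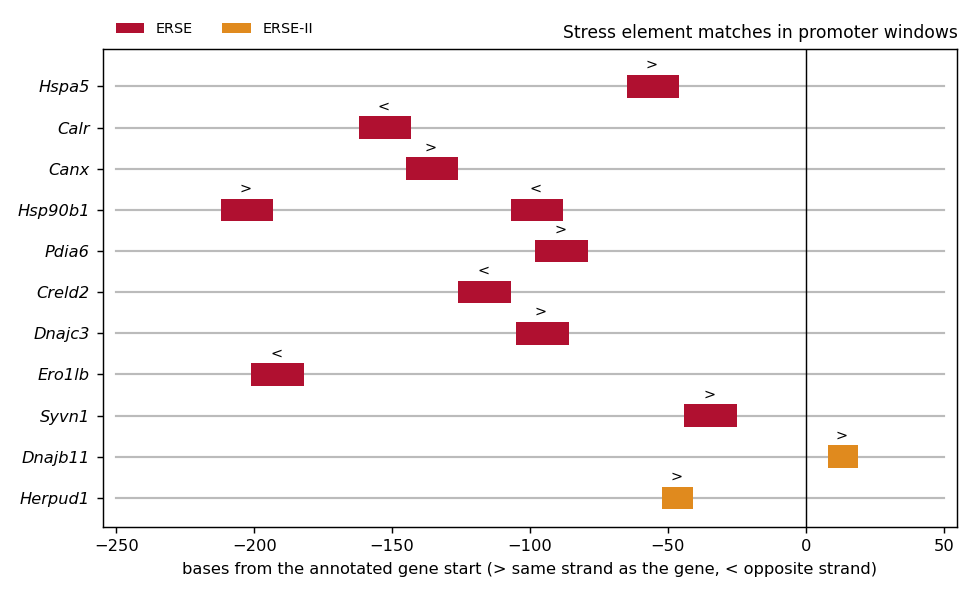
Positions of exact ERSE (red) and ERSE-II (orange) matches in the promoter windows of 11 members, in bases from the annotated gene start, with the strand marked above each match. The 10 ERSE matches lie between 212 and 26 bases before the start, and Hsp90b1 has 2 of them.

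The 250 bases before the start are printed for 5 members whose values are set out next, 4 lower chaperone genes and the best known target, Hspa5, with the ERSE in capitals on the gene's own strand. In Calr and Creld2 the element runs on the opposite strand, so it reads there as its reverse complement. In Hsp90b1 one copy runs each way.
Hspa5, chr2:34771840-34772089, strand +: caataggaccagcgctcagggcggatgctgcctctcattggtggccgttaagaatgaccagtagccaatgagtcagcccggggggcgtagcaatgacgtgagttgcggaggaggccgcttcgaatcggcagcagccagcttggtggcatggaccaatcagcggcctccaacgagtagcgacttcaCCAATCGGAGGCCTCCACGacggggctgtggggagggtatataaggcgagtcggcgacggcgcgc
Calr, chr8:84846932-84847181, strand -: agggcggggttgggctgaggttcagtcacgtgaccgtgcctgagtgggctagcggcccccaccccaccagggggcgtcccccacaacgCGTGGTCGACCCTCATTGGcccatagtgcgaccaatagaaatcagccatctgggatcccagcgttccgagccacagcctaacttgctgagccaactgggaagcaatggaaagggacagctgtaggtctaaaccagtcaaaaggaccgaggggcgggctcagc
Hsp90b1, chr10:86705445-86705694, strand -: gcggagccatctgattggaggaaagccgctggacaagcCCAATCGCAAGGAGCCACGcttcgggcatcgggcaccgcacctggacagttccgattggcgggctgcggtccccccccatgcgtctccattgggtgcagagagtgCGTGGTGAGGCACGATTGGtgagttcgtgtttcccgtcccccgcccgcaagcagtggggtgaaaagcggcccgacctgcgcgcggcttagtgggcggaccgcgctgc
Pdia6, chr12:17266339-17266588, strand +: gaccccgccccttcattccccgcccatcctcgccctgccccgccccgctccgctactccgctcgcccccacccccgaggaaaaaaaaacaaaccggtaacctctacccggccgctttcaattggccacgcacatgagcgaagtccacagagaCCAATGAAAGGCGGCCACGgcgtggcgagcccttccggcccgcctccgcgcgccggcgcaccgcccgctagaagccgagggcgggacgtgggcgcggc
Creld2, chr15:88819396-88819645, strand +: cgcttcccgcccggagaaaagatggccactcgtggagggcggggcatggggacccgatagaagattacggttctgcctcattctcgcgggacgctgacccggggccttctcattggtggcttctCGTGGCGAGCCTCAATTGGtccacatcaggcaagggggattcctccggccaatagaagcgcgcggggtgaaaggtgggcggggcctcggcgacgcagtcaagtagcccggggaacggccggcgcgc

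Chaperones and folding enzymes lay lower in diabetic marrow by small amounts. Of the 17, 15 had a change below 0, against 47.7% of all genes tested, and the median change was -0.11, against 0.00 for all genes. None passed the adjusted threshold. Array weights in limma, an estimate that stopped before it converged, brought 8 of the 32 members past it together with 1878 of all genes. At an unadjusted p under 0.05 there were 6 lower members, Calr, Creld2, Sdf2l1, Pdia4, Pdia6 and Hsp90b1, and 0 higher ones, where 7.18% of all genes passed by that rule, 3.2% lower and 3.98% higher. The list was proposed with earlier results of these data known, so the counts describe these arrays and are not independent support.

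Calr encodes calreticulin, a calcium-binding chaperone for glycoproteins. Its log2 signal read 12.48, 12.55 and 12.61 in wild type against 12.38, 12.29 and 12.37 in diabetic marrow. All 3 diabetic values lay below all 3 wild type values, with a gap of 0.10. The change was -0.20 ± 0.06 (SE, n = 3 per group), a 1.15-fold lower signal, and limma's Benjamini-Hochberg adjusted p was 0.530. Its 95% interval ran from -0.35 to -0.06.

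Sdf2l1, a partner of the BiP chaperone cycle, had the largest difference of the group. It was at 10.67, 10.85 and 10.84 in wild type and at 10.61, 10.24 and 10.58 in diabetic marrow. Diabetic replicate 2 stood well below the others. The change was -0.31 ± 0.11 (SE, n = 3 per group), and limma's Benjamini-Hochberg adjusted p was 0.581. Without diabetic replicate 2 the change was -0.19.

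Creld2, a secreted ER protein induced by folding stress, was at 9.93, 10.05 and 10.05 in wild type and at 9.91, 9.70 and 9.67 in diabetic marrow. The groups only just separated, since diabetic replicate 1 lay 0.02 below the lowest wild type array. The change was -0.25 ± 0.08 (SE, n = 3 per group), or 1.19-fold lower, and limma's Benjamini-Hochberg adjusted p was 0.542.

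Pdia4 and Pdia6 are protein disulfide isomerases, which form and rearrange disulfide bonds. Pdia4 was at 11.12, 11.19 and 11.15 in wild type and at 11.02, 10.87 and 10.996 in diabetic marrow, and Pdia6 was at 9.77, 9.83 and 9.86 against 9.70, 9.56 and 9.66. Both separated the groups, by 0.11 and 0.07, and in both diabetic replicate 2 was the lowest array. Their changes were -0.20 ± 0.06 and -0.18 ± 0.06 (SE, n = 3 per group). After Benjamini-Hochberg adjustment limma gave a p of 0.542 for Pdia4 and of 0.578 for Pdia6. A second, dimmer probe set of Pdia4, with a mean of 7.35, gave -0.02 ± 0.14, and the mean of both sets gave -0.11.

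Hsp90b1 encodes GRP94, the ER form of heat shock protein 90. It was at 11.94, 11.99 and 11.93 in wild type and at 11.84, 11.72 and 11.83 in diabetic marrow, again with separate groups. The change was -0.16 ± 0.06 (SE, n = 3 per group), and limma's Benjamini-Hochberg adjusted p was 0.640.

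Manf, a small secreted ER protein, also separated the groups, at 8.95, 9.01 and 9.12 against 8.94, 8.86 and 8.84, with a change of -0.15 ± 0.07 (SE, n = 3 per group). In all, 7 of the 17 genes had all diabetic values below all wild type values and 0 had the reverse, where 5.39% and 6.97% of all genes tested did so. Hspa5, which encodes the master chaperone BiP, was at 12.04, 12.15 and 12.12 against 12.02, 11.89 and 12.08. Its groups overlapped, and the change was -0.11 ± 0.07, with a 95% interval from -0.27 to 0.05. It was -0.054 without diabetic replicate 2.

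The other 9 folding genes overlapped between the groups and ran from -0.12 to 0.09. Lower values were those of Hyou1, a nucleotide exchange factor for BiP (-0.12 ± 0.08, and -0.043 without diabetic replicate 2), of the co-chaperones Dnajb11 (-0.11 ± 0.08), Dnajb9 (-0.09 ± 0.12) and Dnajc3 (-0.02 ± 0.08), and of Pdia3 (-0.06 ± 0.07), which works with calreticulin. Canx, the membrane-bound relative of calreticulin, was at -0.04 ± 0.05 and so stood nearer 0 than Calr. Ero1lb, the oxidase that recharges disulfide isomerases in secretory cells, was at -0.04 ± 0.12 and, with Ero1l (0.09 ± 0.09) and the isomerase P4hb (0.04 ± 0.07), completes the group. P4hb, Dnajc3 and Ero1lb changed sign when 1 array was left out. The 2 probe sets of Dnajc3 held the same values.

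**Figure D2:**
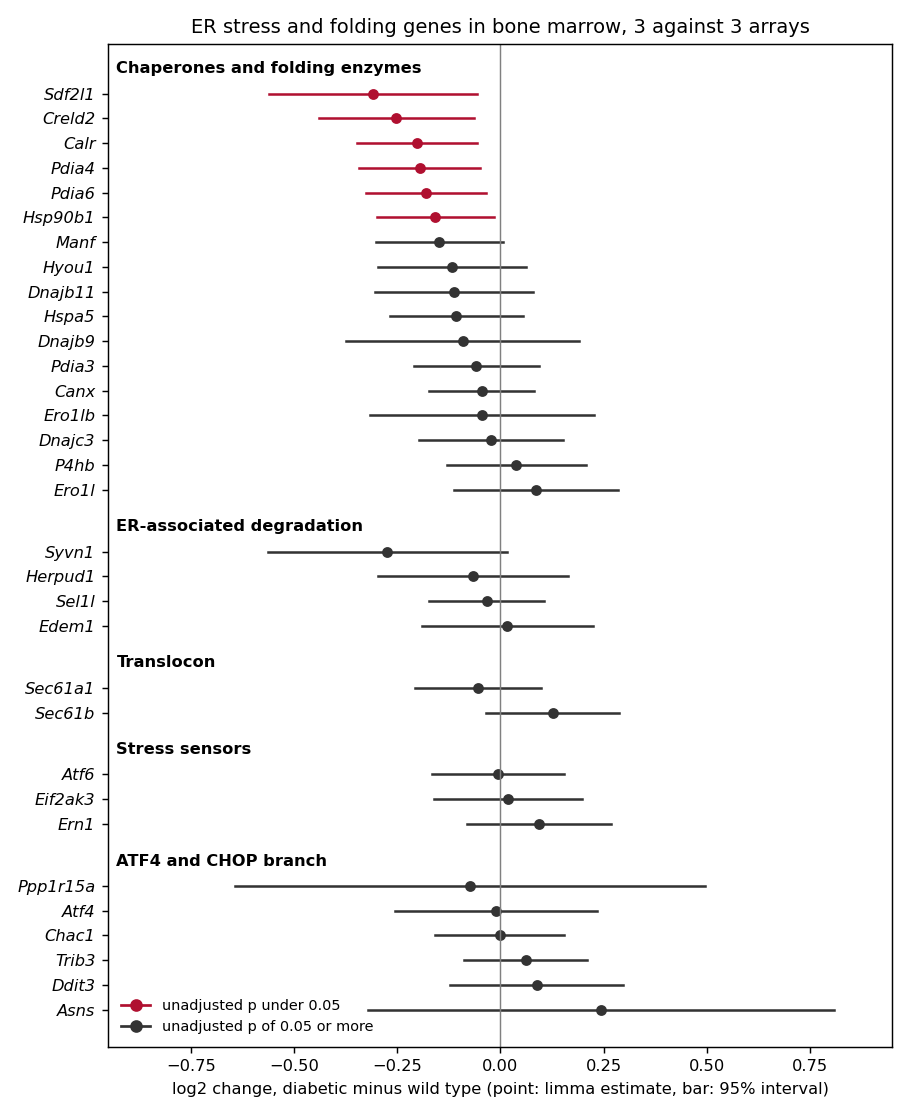
Log2 change (diabetic minus wild type) of each of the 32 genes, by role, with points for limma estimates and bars for 95% intervals over 3 against 3 arrays. The 6 genes with an unadjusted p under 0.05 (red) are all chaperones or folding enzymes with lower values, and none passed after adjustment over 12029 genes.

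Counts of this kind depended on single arrays. The 6 lower members at an unadjusted p under 0.05 became 1 without wild type replicate 2, 3 without diabetic replicate 2 and 9 without wild type replicate 3. With the array that differed in Xist, wild type replicate 1, left out, the count was again 6, where 3.74% of all genes were lower by that rule: Manf came in, at -0.19 ± 0.07 (SE, n = 2 against 3), and Hsp90b1, at -0.16 ± 0.07, went out. The same fit had 15 of the 17 genes below 0, against 49.8% of all genes. The median change of the 17 genes was -0.14 in it and -0.06 without diabetic replicate 2. Diabetic replicate 2 was the lowest of the 6 arrays for 9 of the 17 genes and diabetic replicate 3 for 6 of them. Wild type replicates 2 and 3 were each the highest for 6.

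The 8 chaperone and folding genes with an ERSE all had changes below 0, with a median of -0.13 and a range from -0.25 for Creld2 to -0.02 for Dnajc3. The 7 with a window and no exact match had a median of -0.09, and 5 of the 7 were below 0. Both counts changed when wild type replicate 1 was left out. Ero1lb, which has an ERSE, was then at 0.031, and P4hb, which has none, was at -0.0051. Their ranges overlapped, and Sdf2l1 and Pdia4, without an exact match, were among the lowest. Outside the list, 5 tested genes held an ERSE and are all named here, after their values were seen. Alg12, an enzyme that adds mannose to glycan precursors, shares with Creld2 the same 19 bases at chr15:88819520-88819538, since the 2 genes start on opposite strands around it. Alg12 was at 9.09, 9.16 and 9.18 in wild type and at 8.88, 8.90 and 9.02 in diabetic marrow, with no overlap. Its change was -0.21 ± 0.06 (SE, n = 3 per group), and limma's Benjamini-Hochberg adjusted p was 0.519. Derl3, a degradation factor rich in plasma cells, was at -0.35 ± 0.11, while Pan2, Adcy3 and Zfp57 were at 0.05 ± 0.06, -0.02 ± 0.06 and 0.02 ± 0.06.

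Genes of ER-associated degradation, which pull misfolded proteins out for destruction, had a median change of -0.05. Syvn1 was at 11.03, 10.98 and 10.56 in wild type and at 10.52, 10.70 and 10.53 in diabetic marrow. Wild type replicate 3 lay among the diabetic arrays, so the groups overlapped. The change was -0.27 ± 0.13 (SE, n = 3 per group), and limma's Benjamini-Hochberg adjusted p was 0.724. It was -0.42 without wild type replicate 3 and -0.19 without wild type replicate 1. The window of Syvn1 is printed for comparison with those of the chaperone genes, because its ERSE is the closest of all members to the start.
Syvn1, chr19:6046326-6046575, strand +: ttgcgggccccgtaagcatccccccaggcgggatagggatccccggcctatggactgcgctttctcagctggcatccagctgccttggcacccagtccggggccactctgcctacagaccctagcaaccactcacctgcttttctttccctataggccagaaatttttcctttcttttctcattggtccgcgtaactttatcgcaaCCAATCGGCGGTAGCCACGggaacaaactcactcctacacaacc

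Sel1l, the scaffold that holds the Syvn1 ligase, was at -0.03 ± 0.06 and its change was not tested against that of its partner. Herpud1, an adaptor of the same complex, was at 11.80, 11.80 and 11.47 against 11.67, 11.65 and 11.54. Wild type replicate 3 was again the lowest of the wild type arrays. Edem1, which selects glycoproteins for removal, was at 0.02 ± 0.09.

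The translocon subunits are parts of the channel through which new chains enter the ER. Sec61b was at 9.68, 9.67 and 9.74 in wild type and at 9.85, 9.71 and 9.91 in diabetic marrow, a change of 0.13 ± 0.07 (SE, n = 3 per group), for which limma's Benjamini-Hochberg adjusted p was 0.833. Its other 2 probe sets gave 0.08 ± 0.07 and 0.10 ± 0.08. Sec61a1, the pore itself, was at -0.05 ± 0.07, and at -0.0062 without diabetic replicate 2.

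None of the sensors passed the adjusted threshold, and their groups overlapped. Ern1, which encodes IRE1, was at 9.82, 9.90 and 10.07 against 9.99, 10.02 and 10.06, a change of 0.09 ± 0.08 (SE, n = 3 per group) with a 95% interval from -0.08 to 0.27. The lowest wild type array was replicate 1, and the change was 0.040 without it and 0.16 without wild type replicate 3, the highest. Limma's unadjusted p in that last fit was 0.034. Eif2ak3, which encodes PERK, was at 0.02 ± 0.08 and Atf6 at -0.01 ± 0.07, and both changed sign when 1 array was left out. Their 95% intervals ran from -0.16 to 0.20 and from -0.17 to 0.16. With wild type replicate 1 left out, all 3 sensors had changes above 0, with a median of 0.05, and the degradation genes had a median of -0.03. A sensor's activity lies in its phosphorylation or cleavage and in Xbp1 splicing, which an array signal for the whole gene does not read. Xbp1, the target of IRE1, was at 11.62, 11.63 and 11.60 against 11.61, 11.44 and 11.64, a change of -0.06 ± 0.07.

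The ATF4 and CHOP branch had a median change of 0.03, with 3 of its 6 genes lower and 3 higher. All 6 overlapped between the groups, none passed the adjusted threshold, and 0 had an unadjusted p under 0.05. Leaving out wild type replicate 1 gave a median of 0.02, with 3 lower and 3 higher again. Atf4 itself, which is controlled mostly at translation, was at 8.73, 8.96 and 9.16 in wild type and at 8.86, 8.96 and 8.99 in diabetic marrow. Its diabetic values lay inside the wild type range. Its change was -0.01 ± 0.11 (SE, n = 3 per group).

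Asns, the asparagine synthetase that ATF4 raises when amino acids run short, varied more than any chaperone gene. It was at 10.55, 11.07 and 11.56 in wild type and at 11.16, 11.62 and 11.12 in diabetic marrow. The spread within wild type, 0.51 (SD), was larger than the change of 0.24 ± 0.24 (SE, n = 3 per group). Without wild type replicate 1, the lowest array, the change was -0.01, so its positive value rested on that array.

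Ppp1r15a encodes GADD34, the phosphatase subunit that lets translation resume. It was at 9.87, 10.01 and 10.80 against 9.91, 10.48 and 10.07. Wild type replicate 3 was the highest array and diabetic replicate 2 the next. The change was -0.07 ± 0.25 (SE, n = 3 per group), with 0.21 when wild type replicate 3 was left out and -0.25 when wild type replicate 1 was.

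Ddit3, which encodes CHOP, was at 8.78, 8.81 and 9.01 against 8.84, 9.09 and 8.93, a change of 0.09 ± 0.09 (SE, n = 3 per group). Wild type replicate 3 and diabetic replicate 2 were the highest of their groups here too. Trib3, a pseudokinase induced by CHOP, was at 0.06 ± 0.06. Chac1, which degrades glutathione, was at 0.00 ± 0.07, with a 95% interval from -0.16 to 0.16. Trib3 and Chac1 had the narrowest spread of the branch.

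**Figure D3:**
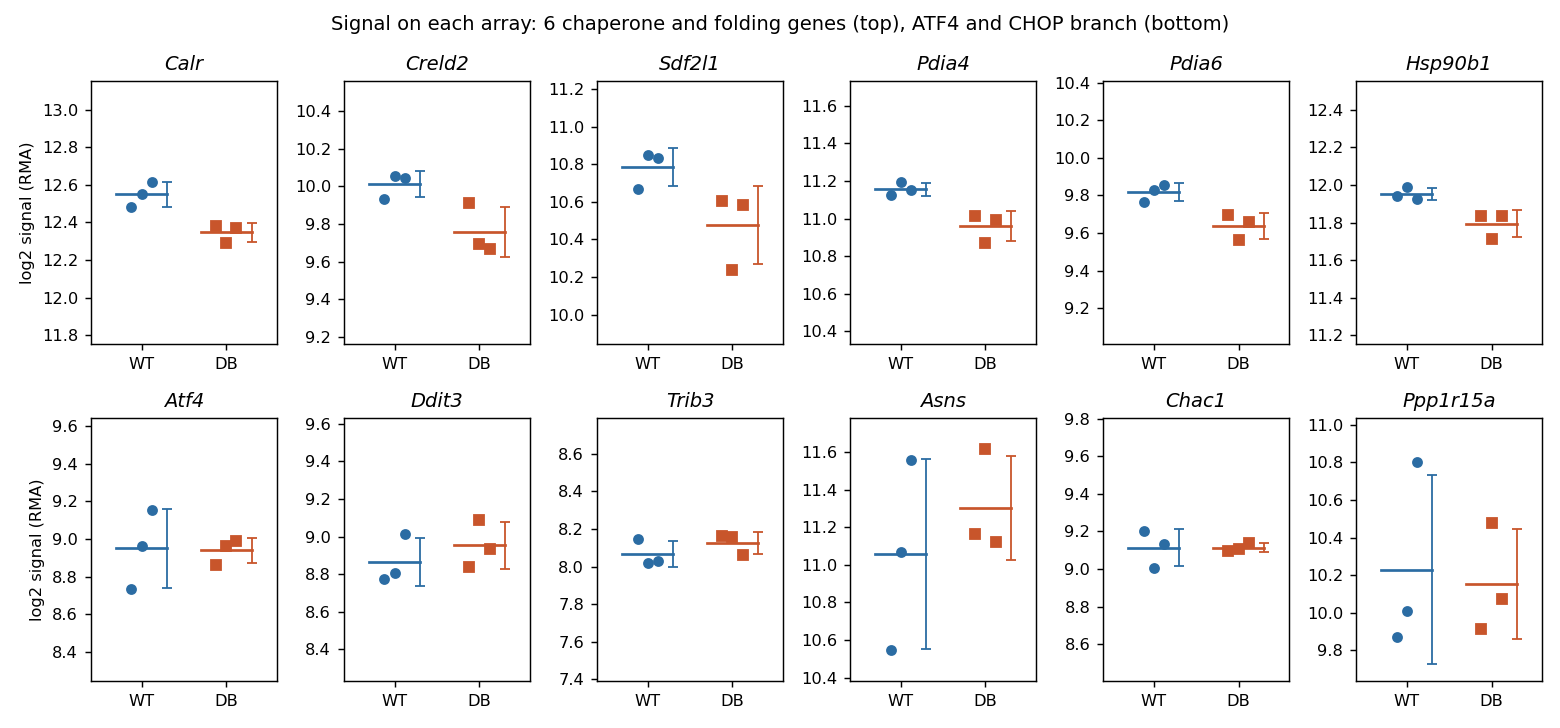
Log2 RMA signal on each array for 6 chaperone and folding genes (top) and the 6 ATF4 and CHOP branch genes (bottom), with circles for wild type, squares for diabetic, lines for group means and error bars for SD over 3 arrays. Every panel spans 1.4 log2 units, and Asns and Ppp1r15a spread widely within both groups. The top genes are those of the 17 with an unadjusted p under 0.05 in limma, so their separate groups reflect that choice. Of all 17, 7 had separate groups.

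The 2 arms were then set against each other array by array. Averaged over the 17 chaperone and folding genes, the wild type arrays read 10.72, 10.79 and 10.77 and the diabetic ones 10.73, 10.57 and 10.64. Only wild type replicate 1, the array that differed in Xist, lay below a diabetic array here. The mean of the 6 branch genes was 9.21, 9.31 and 9.62 against 9.34, 9.57 and 9.39. Diabetic replicate 2 thus had the lowest chaperone mean and the second highest branch mean.

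Chaperone mean minus branch mean came to 1.51, 1.48 and 1.15 in wild type and to 1.39, 1.004 and 1.25 in diabetic marrow, so the groups overlapped. The difference between groups was -0.16 ± 0.16 (SE over array means, n = 3 per group), as large as its own error. Leaving out wild type replicate 1 or 3 gave -0.10 or -0.28, and leaving out diabetic replicate 1 or 2 gave -0.25 or -0.06. Asns and Ppp1r15a gave the branch its widest spread, and without them the other 4 branch genes averaged 8.75 ± 0.07 for wild type against 8.78 ± 0.04 for diabetic arrays (SD, n = 3 each). These arrays therefore gave a lower chaperone mean, by 0.11 ± 0.05, and a branch mean that differed by 0.05 ± 0.14, with no test on either score because the members were chosen with results known.

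**Figure D4:**
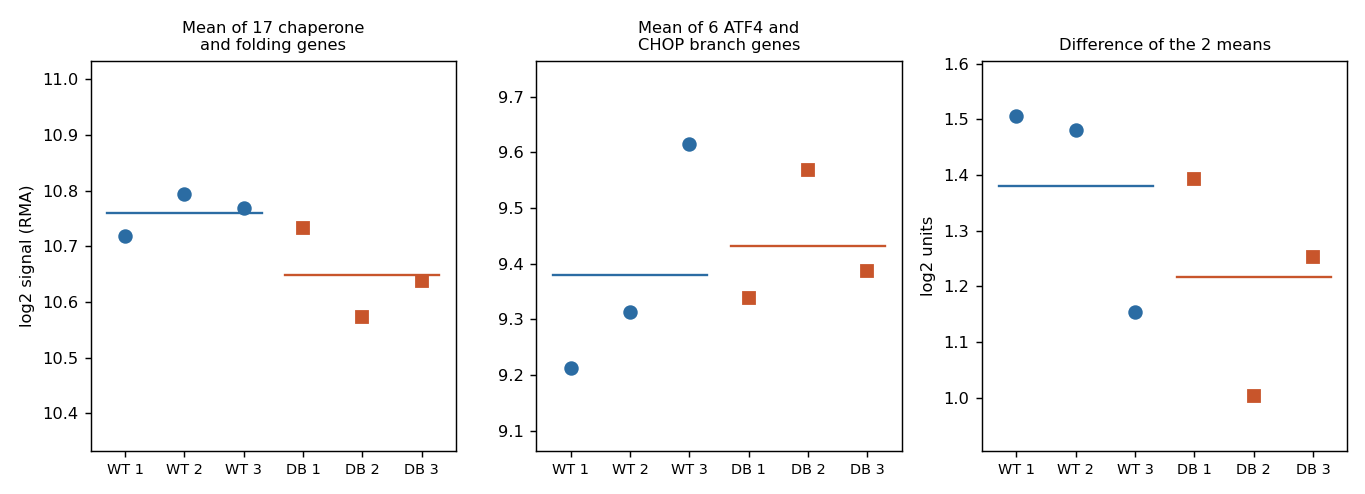
Mean log2 signal per array of the 17 chaperone and folding genes, of the 6 ATF4 and CHOP branch genes, and their difference, with lines for group means over 3 wild type (WT) and 3 diabetic (DB) arrays and the same height of axis in each panel. The difference runs from 1.004 on DB 2 to 1.51 on WT 1, and the groups overlap in all 3 panels.

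Other genes of the same pathways came from a list that excludes the 32. Of 157 listed, 148 had a probe set with 1 symbol and 134 were tested. Of these, 71 were lower and 63 higher, with a median change of -0.01, and 0 passed the adjusted threshold in limma. The lower ones made up 53.0%, against 47.7% of all genes tested. At an unadjusted p under 0.05 there were 6 lower genes and 1 higher gene. By that rule 3.2% of all genes tested were lower and 3.98% higher. The split changed when the array that differed in Xist was left out: 95 were then lower and 39 higher, with a median of -0.05, where 49.8% of all genes were lower. This count was not made with any other array left out. Eif2ak2, the interferon-induced eIF2 kinase PKR, had the largest difference. It was at 8.88, 9.26 and 9.42 against 8.56, 8.47 and 8.42, a change of -0.70 ± 0.13 (SE, n = 3 per group), for which limma's Benjamini-Hochberg adjusted p was 0.102. With wild type replicate 1 left out, Eif2ak2 passed the threshold, at -0.85 ± 0.08 (SE, n = 2 against 3) with an adjusted p of 0.0073, and was the only one of the 134 to do so. In the fit to all arrays it was the only eIF2 kinase with separate lower groups: its relatives in the list did not reach an unadjusted p of 0.05.

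The other 5 lower genes were Derl3, Wars (a tRNA synthetase, -0.23 ± 0.08), Psat1 (serine synthesis, -0.21 ± 0.08), Creb3l2 (an ER-bound transcription factor, -0.16 ± 0.07) and Srprb (a receptor subunit for the signal recognition particle, -0.14 ± 0.06). Ddit4, an ATF4 target that glucocorticoids also raise, was the higher one, at 0.58 ± 0.13. Other ATF4 targets had 9 lower and 15 higher of 24 tested, with a median of 0.04, and 13 lower and 11 higher without wild type replicate 1. Further folding genes had 12 lower and 9 higher of 21, and 16 and 5 without that array. Further degradation genes had 10 lower and 12 higher of 22, and 16 and 6 without it. Further genes of translocation and glycosylation had 20 lower and 9 higher of 29, and 24 and 5 without it. The tRNA synthetases went from 4 lower of 10 to 8.

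Markers of plasma cells, which hold much ER, were lower alongside the chaperone genes. In bulk marrow, fewer cells of a type and less RNA per cell cannot be told apart. Of 10 tested plasma cell genes, 9 were lower, 4 had an unadjusted p under 0.05 in limma and 0 passed after adjustment. Among all genes tested, 47.7% were lower, and 3.2% were lower at that unadjusted p. Without wild type replicate 1, 9 were again lower, 5 had an unadjusted p under 0.05 and Igha passed. In that fit 3.74% of all genes were lower at an unadjusted p under 0.05. The list averaged 9.74, 9.92 and 9.72 on wild type arrays against 9.46, 9.44 and 9.40 on diabetic ones, so the groups did not overlap. The defining markers Prdm1 and Tnfrsf17 lay below the level cut, and Derl3 and Xbp1 belong both to this list and to the pathway lists.

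Igha, the heavy chain of immunoglobulin A, was at 11.09, 11.48 and 11.73 against 10.67, 10.64 and 10.45. Its change was -0.85 ± 0.15 (SE, n = 3 per group), and limma's Benjamini-Hochberg adjusted p was 0.1002. It was -1.02 ± 0.11 (SE, n = 2 against 3) without wild type replicate 1, for which limma gave an adjusted p of 0.0084. Sdc1, the plasma cell surface protein CD138, was at -0.23 ± 0.08, Ighm at -0.31 ± 0.08 and Jchain, which joins secreted antibody units, at -0.69 ± 0.49. Jchain was at 8.72 on wild type replicate 1 against 10.67 and 10.62 on the other wild type arrays, and its change was -1.33 ± 0.21 without that array. Mzb1, an ER cofactor for antibody assembly, was at -0.23 ± 0.16, Irf4 at -0.51 ± 0.31, Slamf7 at -0.39 ± 0.28 and Tnfrsf13b at 0.03 ± 0.07. Unlike Jchain, the genes Irf4, Slamf7 and Mzb1 were highest on wild type replicate 1, at 10.495, 9.94 and 9.13. On wild type replicate 3 they were at 9.297, 8.73 and 8.43, and their groups overlapped. None of them was among the 5 plasma cell genes with an unadjusted p under 0.05 in limma without wild type replicate 1. The part of plasma cells in the chaperone differences was not tested.

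Among other lists, 7 of 8 macrophage genes were lower, also without wild type replicate 1. Of the 8, 6 were lower at an unadjusted p under 0.05 in limma, where the plasma cell list had 4 of 10. Without wild type replicate 1 there were 7 of 8, where the plasma cell list had 5 of 10. The macrophage list means were 10.00, 10.13 and 10.27 against 9.77, 9.90 and 9.94. The 9 B cell precursor genes were all lower, with a median of -0.45, but their list mean ran from 10.28 to 11.39 within wild type. Without wild type replicate 1, which had the highest mean, 7 were lower and 2 higher, with a median of -0.15. Promyelocyte genes, whose products pass through the ER in bulk, had 3 lower and 3 higher of 6, and their mean was 12.20 ± 0.08 against 12.25 ± 0.20 (SD, n = 3 each). Late neutrophil genes had 3 lower and 6 higher of 9, with a median change of 0.04. Without wild type replicate 1 they had 0 lower and 9 higher, with a median of 0.03. Early response and heat shock genes, listed with handling stress in mind, were higher for 9 of 11, and for 8 without that array. Their list means were 9.18, 9.17 and 9.04 in wild type against 9.53, 9.35 and 9.07 in diabetic marrow. Diabetic replicate 3 thus lay inside the wild type range, and handling was not tested. The heat shock gene Hsph1 had the lowest change of that list, -0.26, and was at -0.41 ± 0.14 (SE, n = 2 against 3) without wild type replicate 1. The erythroid mean was 11.90, 12.07 and 12.44 against 12.07, 12.39 and 12.12, highest on wild type replicate 3 and diabetic replicate 2, the same 2 arrays on which Asns and Ppp1r15a were highest. T cell genes had 3 of 4 lower and megakaryocyte genes 3 of 4, which became 3 and 4 without wild type replicate 1. The part of each of these in the members' values was not tested.

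**Figure D5:**
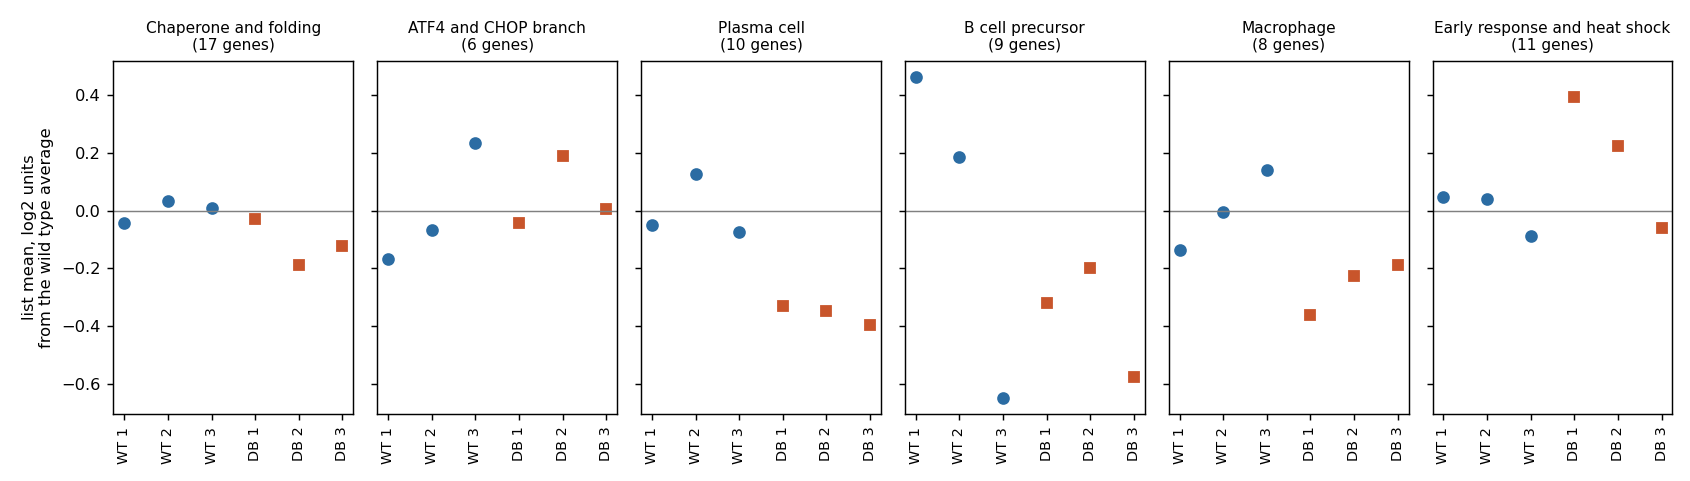
Mean log2 signal of 6 gene lists on each array, as the distance from the average of the 3 wild type (WT, circles) arrays, with squares for the diabetic (DB) arrays. The plasma cell and macrophage means of all DB arrays lie below all WT arrays, while the chaperone and folding means overlap at 10.73 on DB 1 and 10.72 on WT 1. WT 1 is the array that differed in Xist, and the chaperone means of WT 2 and WT 3, 10.79 and 10.77, lie above all DB arrays.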

How the data were processed

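Bone marrow RNA was measured on 6 arrays, grouped by their titles. The deposited table gives 1 log2 value per probe set and array, which the authors obtained by RMA, and the submitters' processing notes name Affymetrix Expression Console. Its version and the genome build were not given in the sources used here. RMA usually equalises probe signals between arrays before it summarises them, so a shift shared by most genes would be hidden, although the summarised medians still differed slightly. Of 35556 probe sets, 21789 had 1 symbol. The annotation lists Ero1l and Ero1lb as Ero1a and Ero1b. One item of the strain label is not reported here.

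The groups were compared with limma 3.58.1 (lmFit, eBayes; R 4.3.3), two-sided and with no covariate, and p-values were adjusted by Benjamini-Hochberg over 12029 genes. The test was tried on simulated data. Motifs were searched with Python 3.11.15. Members, lists and tests were chosen with earlier results of these data known. All 32 members are named. From each other list, genes past the threshold, the 2 with the smallest p and any plasma cell gene could be named, and the text names some of these. Any other gene was named after its values were seen. Alternatives covered the level filter, normalization, probe set choice, variance model, array weights, a replicate block and leaving out each array.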

Additional observations from a re-analysis of the deposited data

How the results depend on the processing

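The count of members past an adjusted p of 0.05 was 0 under every alternative except array weights, where it was 8 (Calr, Hsp90b1, Pdia4, Pdia6, Creld2, Sdf2l1, Syvn1 and Sec61b). That fit called 1878 of all genes, gave wild type replicate 2 a weight of 11.7 against 0.25 to 2.59 for the others, and its weight estimate stopped before it converged. With array weights 11 members were lower and 4 higher at an unadjusted p under 0.05, Pdia3 was at 0.027, Eif2ak3 at -0.021 and Chac1 at 0.087. With the replicate number as a block, 2 genes and 0 members passed. Same-numbered arrays deviated together for only 1 of 3 numbers (correlations across genes of 0.33, -0.04 and -0.05), so the numbers were not taken as pairs. Some arrays of unlike number had correlations of similar size. Wild type replicate 3 was at 0.27 with diabetic replicate 2 and at -0.31 with diabetic replicate 1. Wild type replicate 1 was at -0.29 with diabetic replicate 2. Leaving out 1 array gave 3 to 70 genes past the threshold, 1 to 9 lower members and 0 to 2 higher members at an unadjusted p under 0.05. The sign of 10 members turned in such fits. Their changes ran from -0.0061 to 0.082 for P4hb, -0.076 to 0.020 for Dnajc3, -0.19 to 0.031 for Ero1lb, -0.053 to 0.048 for Atf6, -0.057 to 0.076 for Eif2ak3, -0.044 to 0.11 for Edem1, -0.12 to 0.091 for Atf4, -0.013 to 0.49 for Asns, -0.055 to 0.043 for Chac1 and -0.25 to 0.21 for Ppp1r15a. Of the 32 members, 21 kept 1 sign in all 14 alternatives. The cause of these shifts was not tested. All 32 members lay above the level cut, and their standard errors ran from 0.05 to 0.25.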
